A study of Homo sapiens with 45 samples.

Results

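The cells described here are single H1 cells, an established human embryonic stem cell line, whose RNA was recovered by FRISCR either after fixation or from the living cell. They were chosen by the sample group in the labels: 12 fixed FRISCR cells and 15 live FRISCR cells, or 27 of the 45 cells of the series. The other cells, 7 fixed and 11 live, were lysed in Triton X-100 and are used only for a side by side value at the end. All cells were at passage 40 and grown in mTeSR1 on Matrigel. The fixed cells carry the label DAPI+ and the live cells DAPI-. The labels give no separate cultures, time or fixation day, and their extraction protocol describes cortical tissue and not these cells.

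Fixation with an aldehyde links proteins to each other and to RNA, so that cells can be stained for proteins inside the cell before they are sorted, at the price of RNA that is harder to recover. FRISCR is a procedure that reverses these links in a single fixed cell and captures the freed RNA by its poly(A) tail. The cDNA was made with Smart-seq2, which copies whole transcripts from the poly(A) tail to a template switch at the 5′ end, and cut into libraries with Nextera XT. Human embryonic stem cells are kept undifferentiated by POU5F1, SOX2 and NANOG, divide fast with a short G1 phase, and make large amounts of ribosomal protein and chromatin mRNA. The comparison asks which transcripts a fixed cell yields in another proportion than a live one, when both pass through the same procedure.

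A code in the sample titles splits the cells into 2 library sets. Library set 1, with the code ending in 50, holds 6 fixed and 8 live cells, and library set 2, with the code ending in 51, holds 6 fixed and 7 live cells. The labels do not say what the code stands for. Total counts per cell were 3616109 to 5670848 in fixed cells (median 4452107) and 3725567 to 6030172 in live cells (median 4786207). Because no culture is named for any cell, the cells of a group form 1 sample and do not replicate its condition, and no difference below has a test. Values are the counts summed over the cells of a group per 1000000 summed counts (CPM). Ratios carry exact 95% intervals that treat each read as a separate count. These reads carry no molecular identifiers, so the intervals cover neither the counting error of molecules nor differences between cells. As a measure that a single high cell cannot carry, each gene also has a pair share, the percentage of the 48 fixed and live cell pairs of set 1, or the 42 pairs of set 2, in which the fixed cell had the higher CPM.

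Both groups expressed the genes of undifferentiated stem cells. POU5F1, the OCT4 gene, had 1114 CPM in fixed cells and 1026 CPM in live cells, SOX2 had 44.7 and 48.4 CPM, NANOG had 116 and 125 CPM, and the RNA-binding protein LIN28A had 1103 and 1151 CPM. Of 41 pluripotency genes 31 reached 20 CPM in either group, and in each cell the list took between 1.43% and 1.68% of counts in fixed cells and between 0.967% and 2.00% in live cells. None of 15 mesendoderm and endoderm markers reached 20 CPM, and their summed share was at most 0.0074% in a fixed cell and 0.0051% in a live cell. The list of 18 neural progenitor markers took 0.0318% to 0.188% of counts in fixed and 0.0467% to 0.171% in live cells. Of these 18 markers 6 reached 20 CPM, with log2 ratios of fixed over live from -1.15 to 0.75. Of 12 trophoblast markers 3 did (0.0578% to 0.132% in fixed, 0.0500% to 0.227% in live cells) and of 17 fibroblast markers 5 did (0.0270% to 0.0940% in fixed, 0.0449% to 0.131% in live cells). The part of such markers in the differences below was not tested.

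Across the 7518 genes that reached 20 CPM in fixed or in live cells, the median log2 ratio of fixed over live was -0.02 and its median size 0.36. Genes at least 1.5-fold higher in fixed cells in both library sets numbered 310 (4.12% of the genes tested), and 600 (7.98%) were at least 1.5-fold lower in both. Genes past that fold in opposite directions numbered 271 for higher in set 1 and lower in set 2, and 283 for the reverse. By mean TPM in place of summed counts the 2 calls came to 215 higher and 789 lower, and the median of all genes moved to -0.14, so that list medians are best read against the median of all genes. The genes called by fold were of low abundance, with medians of 40.2 CPM for the higher and 44.4 CPM for the lower ones in the group where they were higher, against 59.4 CPM for all genes.

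The pair share and the fold gave calls that overlapped in part. In 157 genes (2.09%) the fixed cell was the higher one in at least 75% of pairs in both sets, and in 137 genes (1.82%) the fixed cell was the lower one in as many. Of the 310 genes called higher by fold 50 were among these 157, and of the 600 called lower 109 were among these 137. Genes beyond the 75% mark in opposite directions in the sets numbered 29 and 34. A ratio above 1 in both sets was found for 28.1% of all genes and a ratio below 1 in both for 30%. These shares stand beside the counts of list members given below but are not matched for length. The 1504 shortest genes had median log2 ratios of 0.25 in set 1 and 0.18 in set 2. The 1504 longest had -0.22 and -0.11. Counts above 1 in lists of short genes, and below 1 in lists of long genes, were thus not separated from length.

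The genes in which fixed cells were most regularly higher encode mostly small proteins of the spliceosome, the mitochondrion and chromatin, and their differences were modest. SNRPD2 encodes a protein of the Sm ring that most spliceosomal snRNPs carry. In fixed cells it had 452 to 825 CPM in set 1 (median 470) and 481 to 673 CPM in set 2 (median 620). Live cells had 286 to 420 CPM (median 369) and 338 to 476 CPM (median 395). The ranges did not overlap in either set, which held for no other gene among those tested. Its ratio was 1.49 (1.46 to 1.51), or 0.57 on the log2 scale. COX7C, a small subunit of cytochrome c oxidase, had 507 to 908 CPM (median 600) and 683 to 949 CPM (median 787) in fixed cells of sets 1 and 2, against 324 to 622 CPM (median 477) and 473 to 644 CPM (median 573) in live cells. The groups overlapped in set 1 and were separate in set 2, and the ratio was 1.36 (1.34 to 1.38). H2AFZ, the histone variant H2A.Z, had 2076 to 2694 CPM (median 2333) and 1983 to 2877 CPM (median 2558) in fixed cells, against 1245 to 2405 CPM (median 1498) and 1448 to 2558 CPM (median 1778) in live cells. It was 1.38-fold higher in fixed cells (1.37 to 1.39), with some live cells of each set inside the fixed range.

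The other genes named among the 12 most regularly higher ones span 1.28-fold to 1.54-fold. COX7A2, another cytochrome c oxidase subunit, had 359 CPM in fixed cells and 256 CPM in live cells. C14orf156 (now SLIRP), an RNA-binding protein of mitochondria, had 427 and 306 CPM, and HSPE1, the co-chaperonin of the mitochondrial matrix, had 734 and 538 CPM. ATP5J2 (now ATP5MF), a subunit of ATP synthase, had 183 CPM in fixed cells and 143 CPM in live ones, and MRPL51, of the mitochondrial ribosome, had 275 and 179 CPM. Outside the mitochondrion were DAD1, a subunit of the enzyme that adds N-glycans, with 183 CPM in fixed cells and 119 CPM in live ones, the ubiquitin-like protein UBL5 with 219 and 153 CPM, and the selenoprotein SEPW1 (now SELENOW) with 358 and 238 CPM. For each of these 8 genes the pair share was between 87.5% and 93.8% in both sets.

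SRSF6, a splicing factor of the SR family, was the one long transcript of the 12. It had 368 to 669 CPM in set 1 (median 530) and 218 to 440 CPM in set 2 (median 368) in fixed cells, against 279 to 572 CPM (median 348) and 91.2 to 333 CPM (median 236) in live cells. The groups overlapped in both sets, the ratio was 1.48 (1.45 to 1.51), and the gene also differed between the library sets, as given below.

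**Figure D1:**
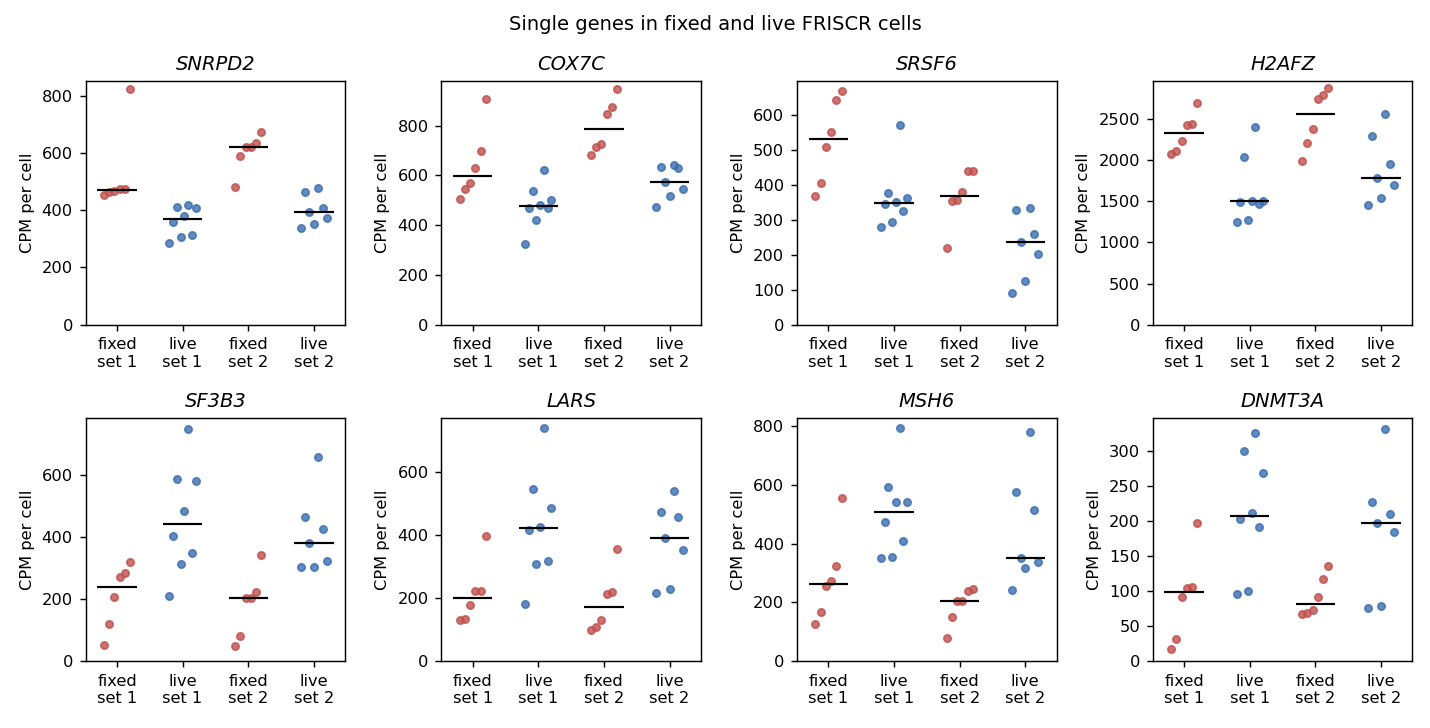
CPM of 8 genes in each cell (y axis, from 0), with fixed cells in red, live cells in blue, each library set apart (x axis) and a line at the median. The upper row holds genes that were higher in fixed cells, such as SNRPD2 with 567 CPM against 382 CPM, and the lower row genes that were lower, such as SF3B3 with 200 CPM against 428 CPM.

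The genes in which fixed cells were most regularly lower encode mostly large proteins of varied function, and their differences were wider. SF3B3, the largest transcript of the SF3b complex that binds the branch point, had 53.1 to 320 CPM in set 1 (median 239) and 50.7 to 340 CPM in set 2 (median 203) in fixed cells, against 211 to 748 CPM (median 443) and 303 to 657 CPM (median 380) in live cells. The upper fixed cells overlapped the lower live cells in both sets, and the gene was lower in fixed cells by a log2 ratio of -1.10, with live 2.14-fold above fixed (2.09 to 2.19). MSH6, of DNA mismatch repair, had 128 to 554 CPM (median 264) and 78.9 to 246 CPM (median 206) in fixed cells, against 350 to 791 CPM (median 507) and 243 to 778 CPM (median 352) in live cells. In set 1 a single fixed cell passed the live median, and in set 2 the highest fixed cell lay at the lowest live cell. LARS, the cytosolic leucyl-tRNA synthetase, had 132 to 399 CPM (median 200) and 101 to 357 CPM (median 172) in fixed cells, against 183 to 742 CPM (median 423) and 218 to 542 CPM (median 393) in live cells. No fixed cell reached the live median of its set, and the log2 ratio was -1.02.

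FLII, an actin-binding protein of the gelsolin family, had 0.217 to 113 CPM (median 46.9) and 14.8 to 82.6 CPM (median 39.5) in fixed cells, against 51.2 to 287 CPM (median 152) and 106 to 278 CPM (median 125) in live cells. Its groups were separate in set 2 but not in set 1, and its log2 ratio of -1.76 was the lowest of the 12. The splicing regulator RBM10 (34.1 CPM in fixed cells and 93.5 CPM in live ones) and UNC45A (36.2 and 110 CPM), a chaperone of myosin, were likewise more than 1 log2 unit lower. UGDH, which makes the precursor of glycosaminoglycans, had 124 CPM in fixed cells and 271 CPM in live ones. The nucleolar protein NOLC1 had 154 and 342 CPM and the endocytic adaptor HIP1 had 46.4 and 105 CPM. Of the endoplasmic reticulum, PRKCSH, a subunit of glucosidase II, had 88.4 CPM in fixed cells and 207 CPM in live ones, and the chaperone HYOU1 had 108 and 199 CPM. The pair share of the 12 most regularly lower genes was between 0% and 14.3%. No value of the 24 genes changed sign when any cell was left out or another scaling was used. The genes were chosen for extreme pair shares in these same cells, so a change of sign was unlikely from the start.

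Genes called by pairs differed in transcript length from all genes, and those called higher by fold differed little. The length used here is the one implied by the ratio of the authors' estimated counts to their TPM. The 157 genes regularly higher in fixed cells had a median length of 1107 bases, and 44.6% of them were under 1000 bases, against 7.73% of all genes tested. The 137 regularly lower genes had a median length of 3877 bases, with 48.2% above 4000 bases against 34.2% of all genes, and none under 1000. The 310 genes called higher by fold had a median length of 3097 bases, with 7.42% under 1000 bases and 35.2% above 4000, against a median of 2996 bases for all genes. The 600 called lower by fold had a median of 3966 bases, with 49% above 4000. Of the pair calls, the median size of the log2 ratio was 0.55 in the higher and 1.06 in the lower genes, and the median CPM in the higher group was 207 and 134. Over 5 bins of all genes from the shortest to the longest, the median log2 ratio was 0.23, -0.01, -0.13, -0.21 and -0.16, with 0.25, 0.03, -0.11, -0.24 and -0.22 in set 1 and 0.18, -0.04, -0.13, -0.15 and -0.11 in set 2. In the same order 4.19%, 3.99%, 4.12%, 3.79% and 4.52% of a bin's genes were called higher by fold and 1.26%, 5.59%, 9.77%, 12.0% and 11.3% lower. By pairs 6.72%, 1.33%, 0.665%, 0.798% and 0.931% were called higher. The shortest bin reached 1632 bases, and of the 581 genes under 1000 bases 70 were called higher by pairs. Both values are the background for the pair calls in lists of short genes below. By the longest transcript of the GENCODE annotation the shortest and longest bins had 0.21 and -0.14.

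The gap between short and long genes was present at each level of expression. Genes were split into 3 classes by CPM and each class into 5 length bins. In the lowest class the shortest bin had a median log2 ratio of 0.17 and the longest -0.24, in the middle class 0.18 and -0.13, and in the highest class 0.27 and -0.18. Content of G and C showed no such order, with medians from the lowest to the highest of 5 bins of -0.03, -0.02, 0.00, -0.05 and -0.05. Across genes, which are not independent replicates, Spearman's rho of length and log2 ratio was -0.25, so that most of the spread of single genes lay outside this trend.

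**Figure D2:**
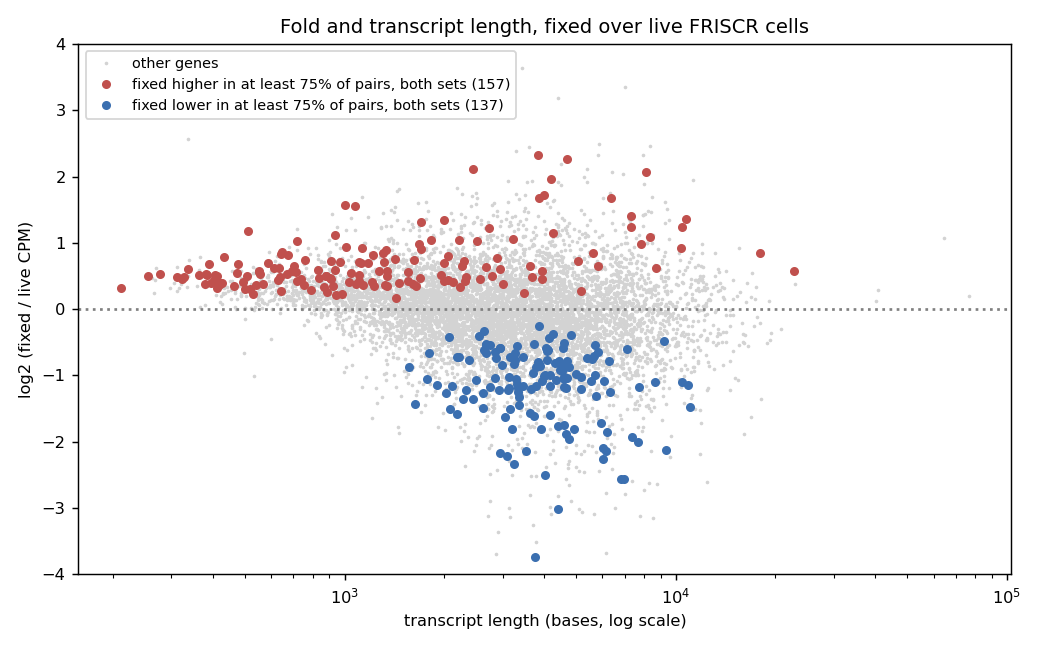
The log2 ratio of fixed over live CPM (y axis) of each of the 7518 genes against its transcript length in bases (x axis, log scale), with 8 genes beyond the y axis not drawn. Red points are the 157 genes higher in fixed cells in at least 75% of pairs in both sets, which gather at short lengths with small ratios, and blue points the 137 genes lower in as many pairs, none of which is under 1000 bases.

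Summed per cell, genes under 1000 bases took 11.5% to 15.8% of counts in fixed cells of set 1 (median 13.9%) and 15.6% to 16.9% in fixed cells of set 2 (median 16.0%). Live cells had 10.2% to 12.6% (median 11.2%) and 12.5% to 14.3% (median 13.7%). The fixed cell was higher in 95.8% of pairs in set 1 and in all pairs of set 2, where the groups did not overlap. Genes above 4000 bases took 18.2% to 21.7% (median 18.8%) and 16.9% to 17.9% (median 17.3%) in fixed cells, against 20.8% to 25.2% (median 22.3%) and 17.7% to 20.1% (median 18.8%) in live cells. Here the fixed cell was higher in 4.17% and 2.38% of pairs. The exact 95% interval of such a share in 1 cell was at most 0.0412 percentage points to either side.

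The SF3b complex, chosen as an example after its values were seen, holds both ends of this order within a single particle. In order of length the log2 ratios were 0.82 for SF3B5, 0.29 for SF3B14 (now SF3B6), 0.15 for PHF5A, 0.25 for SF3B4, -0.22 for SF3B2, -0.46 for SF3B1 and -1.10 for SF3B3. SF3B5, with an implied length of 676 bases, had 121 CPM in fixed cells and 68.5 CPM in live ones, while SF3B1, with 4544 bases, had 401 and 552 CPM. PHF5A had a log2 ratio of -0.15 in set 1 and 0.22 in set 2, and the other 6 kept their sign in both sets.

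**Figure D3:**
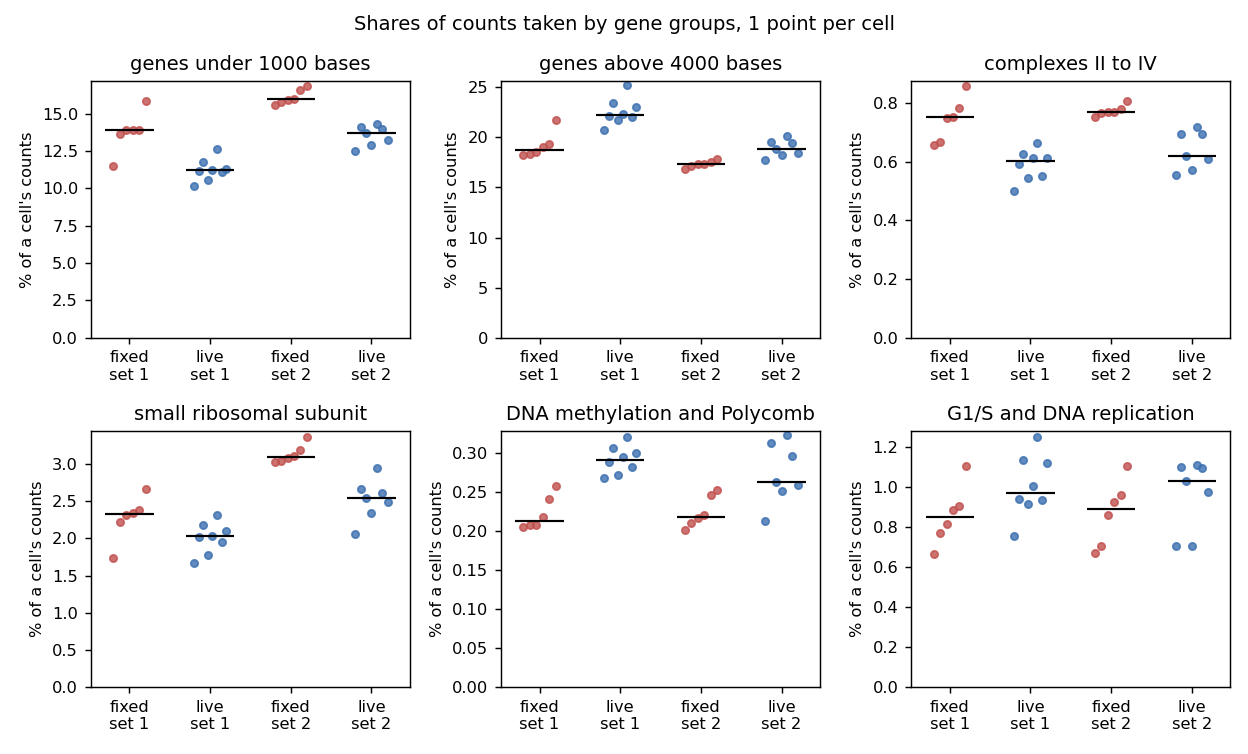
Percentage of a cell's counts (y axis, from 0) taken by genes under 1000 bases, genes above 4000 bases and 4 gene lists, 1 point per cell, fixed cells in red and live cells in blue, by library set (x axis), with a line at the median. Short genes and complexes II to IV lie higher in fixed cells of both sets, and the DNA methylation and Polycomb list lies lower, without overlap in set 1.

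Most subunits of the respiratory chain and of ATP synthase, which pass electrons to oxygen and drive ATP synthesis, had higher values in fixed cells. Complex I, the entry point for NADH, had a median log2 ratio of 0.32 over 38 genes, with 33 above 1 in both sets and 0 below 1 in both. NDUFB5 was the only member called by fold and had 62.2 to 209 CPM (median 155) and 93.3 to 250 CPM (median 141) in fixed cells, against 33.2 to 202 CPM (median 66.8) and 57.9 to 97.4 CPM (median 72.2) in live cells. The highest live cell of set 1 exceeded the fixed median, no live cell of set 2 did, and the ratio was 1.91 (1.85 to 1.98). The core subunit NDUFS1 stood at the low end, with a log2 ratio of -0.32. By pairs 4 of the 38 were called higher (NDUFA1, NDUFB5, NDUFC2 and NDUFS6). Beside this stand 6.72% of all genes in the shortest length bin and 70 of the 581 genes under 1000 bases. NDUFA4, the most abundant gene of this list though now counted with cytochrome c oxidase, had a log2 ratio of 0.39.

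Complexes II to IV with cytochrome c had a median of 0.34 over 25 genes, 21 of them above 1 in both sets and 1 below, and ATP synthase had 0.36 over 18 genes, 17 above and 0 below. Called higher by pairs were 6 of the 25, which were SDHC, COX5A, COX5B, COX6C, COX7A2 and COX7C. Of the 18 there were also 6, which were ATP5E, ATP5H, ATP5I, ATP5J2, USMG5 and ATPIF1. The share so called was 2.09% over all genes but 6.72% in the shortest length bin. Of the 581 genes under 1000 bases, 70 were so called. COX5A had 250 to 579 CPM (median 488) and 446 to 581 CPM (median 458) in fixed cells, against 205 to 337 CPM (median 275) and 232 to 499 CPM (median 379) in live cells. SDHA, the large flavoprotein of complex II, had -0.32 and ATP5B, the catalytic beta subunit and the most abundant of ATP synthase, had -0.05. The summed share of complexes II to IV was 0.657% to 0.857% in fixed cells of set 1 and 0.752% to 0.808% in set 2, against 0.502% to 0.664% and 0.554% to 0.717% in live cells, without overlap in set 2. All genes within the central range of lengths of these lists had medians of 0.17 for complex I, 0.10 for complexes II to IV and 0.18 for ATP synthase. These ranges reached 2094, 2755 and 1993 bases, well past the median lengths of the lists (682, 1084 and 725 bases). Genes from 321 to 896 bases, the range of the small ribosomal subunit, had a median of 0.32, near the medians of these lists.

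Genes that serve the same organelle were also higher. The mitochondrial ribosome had a median of 0.24 over 74 of 75 genes, against 0.12 for genes of like length. Of the 74, 40 were above 1 in both sets and 5 below. MRPS17 had 42.1 CPM in fixed cells and 18.7 CPM in live ones (log2 1.17), MRPL40 had the highest log2 ratio (1.21) and MRPL4 the lowest (-0.42). Mitochondrial import and assembly factors had a median of 0.33 over 32 genes of 33 in the tables, against 0.11 for genes of like length. By pairs 4 were called higher, beside 2.09% of all genes and 6.72% in the shortest length bin. Of the 32 factors 19 were above 1 in both sets and 2 below. Among them CHCHD2, a protein of the space between the membranes, had 90.3 to 727 CPM (median 433) and 149 to 483 CPM (median 430) in fixed cells, against 110 to 418 CPM (median 305) and 76.1 to 467 CPM (median 186) in live cells. Its groups overlapped widely, with a ratio of 1.67 (1.63 to 1.70).

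Cytosolic ribosomal protein genes, short and very abundant, were higher in fixed cells by a small and even margin. The small subunit had a median log2 ratio of 0.29 over 32 genes (0.16 in set 1 and 0.33 in set 2), with 31 above 1 in both sets and none called by fold in either direction. The large subunit had 0.24 over 47 genes (0.16 and 0.28), with 39 above and 1 below, and none called by fold. By pairs 9 and 8 of them were called higher, beside 6.72% of all genes in the shortest length bin and 70 of the 581 genes under 1000 bases. RPS25 had 529 to 1160 CPM (median 982) and 1046 to 1277 CPM (median 1109) in fixed cells, against 616 to 852 CPM (median 717) and 849 to 1097 CPM (median 922) in live cells. RPL41 had 693 to 1401 CPM (median 1206) and 1354 to 1538 CPM (median 1393) against 651 to 1085 CPM (median 937) and 897 to 1314 CPM (median 1047) in live cells, without overlap in set 2. The single genes at the ends were RPS26 (0.62) and RPS3A (0.11) of the small subunit, and RPL27 (0.50) and RPL3 (-0.20) of the large. Genes of like length had medians of 0.32 and 0.20, close to the lists themselves.

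Splicing, proteasome and histone variant lists also had medians above 0. The LSM and Sm proteins, which form the cores of the snRNPs, had a median of 0.33 over 18 of 19 genes, with 13 above 1 in both sets and 1 below, and SNRPD2, SNRPE, SNRPF, SNRPG and LSM3 called by pairs. Genes of like length had 0.18. The whole splicing list, of 59 genes past the filter, was split, with 7 called higher and 4 lower by pairs. On the higher side were HNRNPH1 (0.42) and the 4 Sm proteins with SRSF6 and SF3B5, and on the lower HNRNPA2B1 (-0.26), SF3A1 (-0.74), SF3B3 and SRSF4 (-1.27). Its median was 0.12, or -0.01 by mean TPM, with a median length of 2568 bases, and genes of like length had -0.05. The proteasome, which degrades ubiquitin-tagged proteins, had a median of 0.21 over 33 genes, with PSMA3 (0.50), PSMB5 (0.37) and SHFM1 (0.40) called by pairs and PSMD3, of the regulatory particle, lowest at -0.46. Genes of like length had 0.05. Polyadenylated histone variants and HMG proteins had 0.22 over 17 genes of a median length of 2007 bases, against -0.00253 for genes of like length, with H2AFY2 (-1.78) and H1F0 (1.15) at the ends. H1F0 was uneven among cells, with 0 to 968 CPM in fixed and 0 to 405 CPM in live cells and pair shares of 58.3% and 57.1%.

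Translation showed both directions within a pathway. The elongation factor EEF2 was lower in fixed cells, with 157 to 668 CPM (median 352) and 553 to 1170 CPM (median 794), against 497 to 909 CPM (median 671) and 832 to 1527 CPM (median 1090) in live cells, and a log2 ratio of -0.55. The initiation scaffolds EIF4G1 (-0.76) and EIF4G2 (-0.62) and EIF3A (-0.70), the largest subunit of eIF3, were also called lower by pairs. EIF5A, a small elongation factor, was called higher, with 1129 CPM in fixed cells and 877 CPM in live ones (log2 0.37). The list's median was 0.14 over 37 genes. Aminoacyl-tRNA synthetases, the enzymes that load amino acids on tRNA, had a median of -0.29 over 20 genes, -0.29 in set 1 and -0.32 in set 2, with 14 below 1 in both sets and 1 above. Genes of like length had -0.13. GARS had 78.4 to 453 CPM (median 363) and 163 to 435 CPM (median 220) in fixed cells, against 122 to 719 CPM (median 545) and 274 to 737 CPM (median 581) in live cells (log2 -0.73). AARS stood at -0.75, and the highest was SARS at 0.30.

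**Figure D4:**
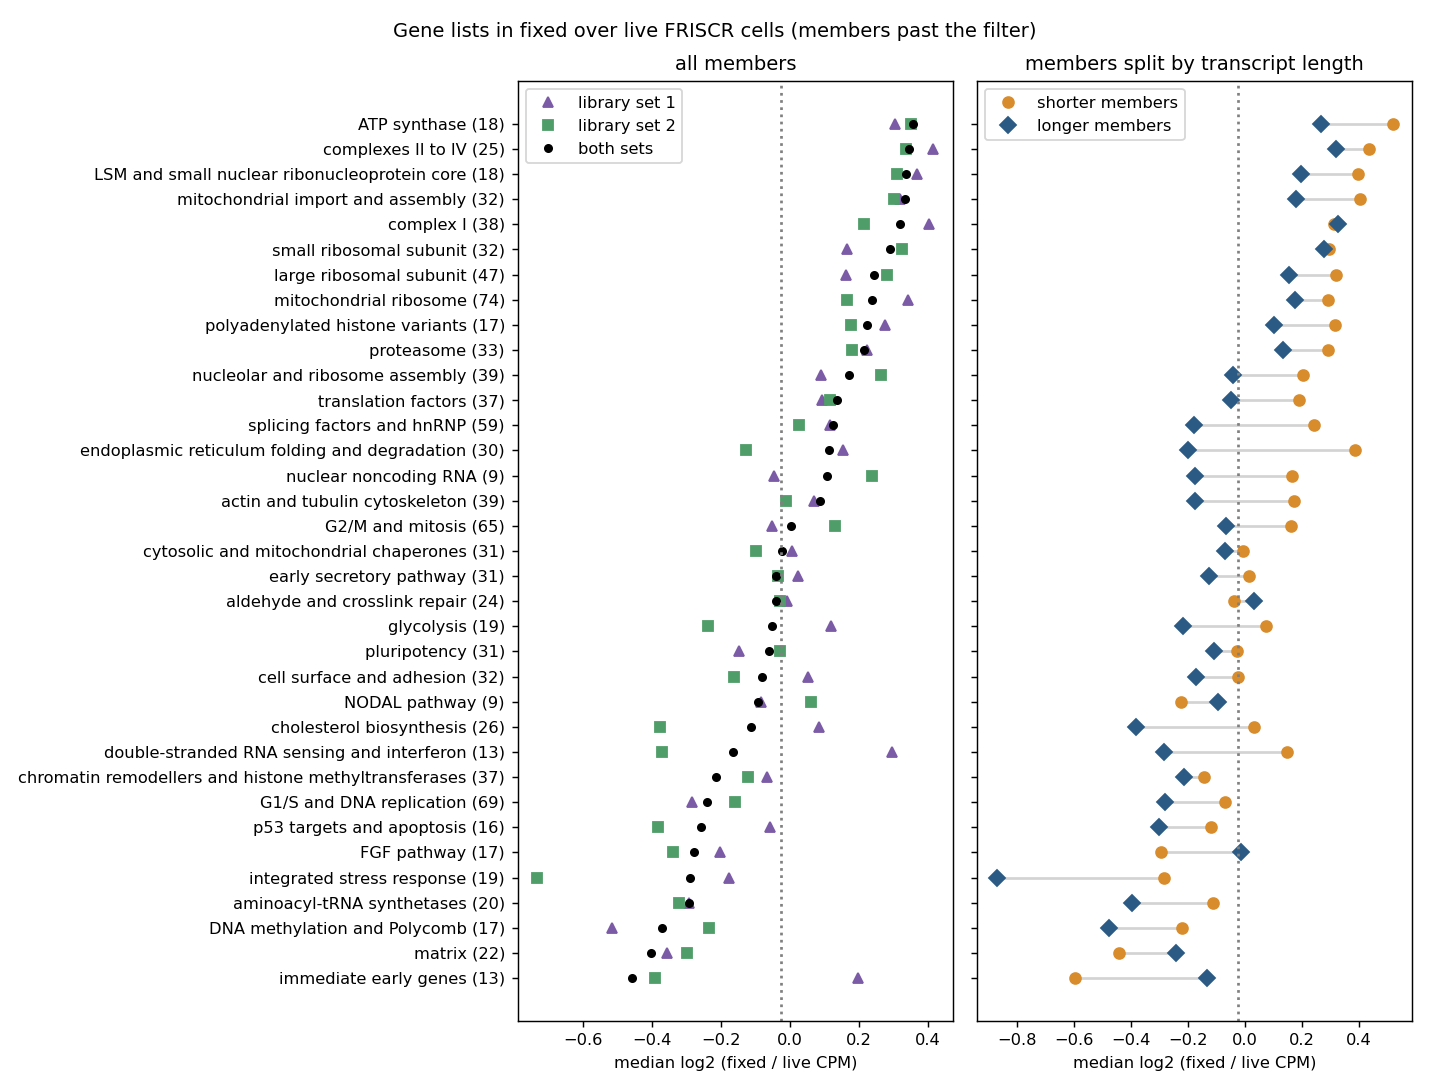
Left, the median log2 ratio of fixed over live CPM (x axis) of each gene list with at least 8 members past the filter (y axis, number of members in brackets), for both sets together and for each library set. Right, the same lists with members split at the median transcript length, where the shorter members lie above the longer ones in 29 of 35 lists. The dotted line is the median of all genes, -0.02.

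DNA methylation and Polycomb genes, which lay down and read repressive marks, had a median of -0.37 over 17 of 22 genes (-0.52 in set 1 and -0.23 in set 2), with 10 below 1 in both sets and 0 above. Genes of like length had -0.16. DNMT3A, a de novo DNA methyltransferase, had 18.4 to 198 CPM (median 98.6) and 68.2 to 136 CPM (median 82.3) in fixed cells, against 95.7 to 326 CPM (median 208) and 76.1 to 332 CPM (median 198) in live cells (log2 -1.16). DNMT1, the maintenance enzyme, had 111 CPM in fixed cells and 161 CPM in live ones, and DNMT3B, the most abundant methyltransferase of these cells, had 393 and 546 CPM. The list took 0.205% to 0.258% of counts in fixed cells of set 1, below the 0.268% to 0.320% of every live cell of that set. In set 2 it took 0.201% to 0.252% in fixed and 0.213% to 0.322% in live cells, with the fixed cell higher in 11.9% of pairs.

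Remodellers and histone methyltransferases had -0.21 over 37 genes, close to the -0.17 of genes of like length, and -0.05 without live cell 1. Of the 37, 10 were above 1 and 15 below 1 in both sets, with SMARCA5 (-0.59) and CREBBP (-1.15) called lower by pairs. MLL5 (now KMT2E) was higher in fixed cells, with an implied length of 7331 bases. It had 81.6 to 347 CPM (median 155) and 71.1 to 165 CPM (median 130) in fixed cells, against 1.27 to 144 CPM (median 64.2) and 3.68 to 135 CPM (median 44.3) in live cells. Matrix genes had a median of -0.40 over 22 of 28 genes, with 9 below 1 in both sets and 1 above. COL1A2 was lowest there, with 40.9 CPM in fixed cells and 122 CPM in live ones, and log2 ratios of -0.78 in set 1 and -3.18 in set 2.

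Of the cell cycle, genes of G1/S and DNA replication had a median of -0.24 over 69 of 71 genes, with 33 below 1 in both sets and 14 above. MCM3, of the replicative helicase, had 181 to 435 CPM (median 355) and 103 to 489 CPM (median 320) in fixed cells, against 399 to 752 CPM (median 577) and 268 to 744 CPM (median 604) in live cells. In set 1 just 2 fixed cells reached the live range, in set 2 the groups overlapped more, and the log2 ratio was -0.83. MCM7 had 337 CPM in fixed cells and 508 CPM in live ones, while ORC5, of the origin recognition complex, was higher, with 70.5 and 27.8 CPM. Genes of like length had -0.10, and the shorter and the longer members of the list had -0.07 and -0.28. Genes of G2/M and mitosis had a median of 0.00 over 65 genes, with CDK1 (0.86) and PRC1 (0.81) above and TPX2 (-1.02), NEK2 (-0.98) and KIF4A (-0.73) below. CDK1, the mitotic kinase, had 59.9 to 545 CPM over fixed cells and 0 to 530 CPM over live cells, and no member of this list was called by pairs.

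Genes of the stress responses showed no shared increase in fixed cells. Cytosolic and mitochondrial chaperones had a median of -0.02 over 31 genes, with 9 above 1 and 9 below 1 in both sets. HSP90AB1, an abundant cytosolic chaperone, had 2828 to 3728 CPM (median 3154) and 2874 to 3507 CPM (median 3293) in fixed cells, against 3553 to 5361 CPM (median 4309) and 2982 to 4863 CPM (median 3690) in live cells. The fixed cell was higher in 2.08% and 19.0% of pairs. DNAJB1, which is induced by heat shock, had 155 CPM in fixed cells and 97.7 CPM in live ones, but pair shares of only 62.5% and 66.7%. Genes of the integrated stress response had a median of -0.29 over 19 of 22 genes, with 12 below 1 in both sets and 1 above. Their called members were of low abundance, such as ATF3 with 11.5 CPM in fixed cells and 28.0 CPM in live ones, and none was called by pairs.

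Immediate early genes, which respond to handling within minutes, had 13 of 29 members past the filter and a median of -0.46, or 0.13 with a filter of 5 CPM, with 0.20 in set 1 and -0.39 in set 2 and 0.13 over the genes past a filter of 5 CPM. ZFP36L1, which speeds mRNA decay, was called lower by pairs, with 162 CPM in fixed cells and 268 CPM in live ones, and KLF10 had 39.6 and 14.4 CPM. Targets of p53 had -0.26 over 16 genes, and PMAIP1, the most abundant, had 216 CPM in fixed cells and 219 CPM in live ones. Repair of aldehyde damage and crosslinks had -0.04 over 24 genes, and ADH5, which oxidises formaldehyde as its glutathione adduct, had 349 CPM in fixed cells and 363 CPM in live ones. Genes of double-stranded RNA sensing and interferon had -0.17 over 13 of 28 genes, or 0.15 with a filter of 5 CPM, with sets at 0.30 and -0.37.

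Genes of folding and degradation in the endoplasmic reticulum differed by length. Its median was 0.11 over 30 of 34 genes, but 0.39 in its 15 shorter and -0.20 in its 15 longer members. SEC61G, the smallest subunit of the translocon, had 170 CPM in fixed cells and 118 CPM in live ones, and SSR4 stood at 0.37. P4HB, the protein disulfide isomerase, had 292 and 423 CPM, and SEL1L, of the degradation machinery, stood at -2.57 with counts in 8 of 12 fixed and 13 of 15 live cells. HYOU1, SEL1L and OS9 (-1.23) were called lower by fold and SYVN1 (1.26) higher.

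The lists that follow had medians between -0.28 and 0.17, against -0.02 for all genes. Glycolysis had -0.05 over 19 genes, with GAPDH at 6539 CPM in fixed cells and 6204 CPM in live ones and the hexokinase HK1 called lower at 122 and 223 CPM. Cholesterol biosynthesis had -0.11 over 26 genes, 0.09 in set 1 and -0.38 in set 2, with LSS called lower at 99.7 CPM in fixed cells and 188 CPM in live ones. Actin and tubulin genes had 0.09 over 39 genes, or -0.06 by mean TPM, with ACTB at 9718 CPM in fixed cells and 10080 CPM in live ones, the actin-binding PFN1 called higher by pairs at 1884 and 1471 CPM, and EZR called lower at a log2 ratio of -0.78. The early secretory pathway had -0.04 over 31 genes, cell surface and adhesion -0.08 over 32, nucleolar and ribosome assembly 0.17 over 39, the NODAL pathway -0.09 over 9 (0.16 with a filter of 5 CPM), the FGF pathway -0.28 over 17 and nuclear noncoding RNA 0.11 over 9, or -0.04 by mean TPM. In the nucleolar list NPM1 was called higher by pairs with a log2 ratio of 0.17, while NCL, nucleolin, had 1017 CPM in fixed cells and 1451 CPM in live ones. Of 36 replication-dependent histones, whose mRNA lacks a poly(A) tail, only HIST1H4J passed the filter.

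Among the pluripotency genes themselves the median was -0.06 over 31 genes, with 8 above 1 in both sets, 11 below and none called by pairs. Called lower by fold were, among others, the transcription factor SALL4 (-0.90) and the RNA-binding protein LIN28B (-0.83), both regulators of this state. SALL4 had 23.6 to 175 CPM (median 116) and 3.88 to 129 CPM (median 40.8) in fixed cells, against 75.2 to 270 CPM (median 132) and 0 to 218 CPM (median 122) in live cells, with wide overlap. TERF1, a telomere protein, had 891 CPM in fixed cells and 666 CPM in live ones, but a log2 ratio of 0.79 in set 1 and only 0.10 in set 2. The noncoding RNA ESRG had 0.56 in set 1 and -0.50 in set 2, and LIN28A -0.36 and 0.28, so that the sets did not give such members the same sign.

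After each cell was thinned to 1000000 counts, a median of 8955.5 genes had a count in fixed cells (7971 to 10001, SD 597 over 12 cells) and 9053 in live cells (8321 to 10333, SD 528 over 15 cells). The medians differed by -97.5 genes. Without thinning the medians were 9943.5 and 10169. Detection per gene was slightly lower in fixed cells from the second of 5 expression bins upward. In the middle bin, from 13.8 to 32.0 CPM, a gene was detected on average in 66.7% of fixed cells and 70.7% of live cells of set 1, and in 66.9% and 70.2% in set 2. The cell to cell spread of a gene was higher in fixed cells in each bin and set. In the fourth bin the median coefficient of variation was 0.865 in fixed and 0.758 in live cells of set 1, and 0.835 and 0.777 in set 2, and in the highest bin it was 0.462 and 0.426, and 0.454 and 0.428.

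Ratios between the library codes were of about the same median size as those of fixed over live. That size includes differences among the few cells of each sum, so it does not rank the 2 comparisons. The median size of the log2 ratio of set 2 over set 1 was 0.49 within fixed cells and 0.44 within live cells, beside 0.47 and 0.45 for fixed over live within sets 1 and 2. Genes at least 1.5-fold higher in set 2 in fixed and also in live cells numbered 407 (5.41%), and 535 (7.12%) were lower in both, while 297 and 266 genes went past that fold in opposite directions. By pairs 230 genes (3.06%) were called higher and 98 (1.3%) lower in set 2. Across genes, the log2 ratios of the sets in fixed and in live cells, which share no cell, had a Pearson r of 0.11.

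Ribosomal protein genes led the higher side of set 2. By pairs 27 of 32 genes of the small and 27 of 47 of the large subunit were called higher in it, with list medians of 0.48 and 0.38 in fixed cells and 0.34 and 0.31 in live cells, against 0.18 and 0.07, and 0.27 and 0.17, for genes of like length. RPS2 had 888 to 1963 CPM (median 1325) in set 2 and 285 to 679 CPM (median 397) in set 1 in fixed cells, and 398 to 1349 CPM (median 934) in set 2 and 159 to 343 CPM (median 279) in set 1 in live cells. The sets did not overlap in either group. APOE, the lipid carrier, had medians of 175 CPM in set 2 and 23.0 CPM in set 1 in fixed cells, and 140 and 11.7 CPM in live cells. The nucleolar protein GLTSCR2 (now NOP53) had medians of 50.6 and 5.39 CPM in fixed and 31.9 and 7.44 CPM in live cells, and EEF2 had 794 and 352 CPM in fixed and 1090 and 671 CPM in live cells. RPL32, RPL13, ENSA and LSMD1 (now NAA38) complete the 8 most regularly higher genes. POU5F1 had 1182 to 1596 CPM in set 2 and 537 to 1171 CPM in set 1 in fixed cells, without overlap, and 1104 to 1606 CPM in set 2 and 189 to 1295 CPM in set 1 in live cells.

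On the lower side of set 2, AASS, an enzyme of lysine breakdown, had 15.1 to 285 CPM (median 123) in set 2 and 303 to 1260 CPM (median 865) in set 1 in fixed cells, and 96.0 to 809 CPM (median 256) and 508 to 1827 CPM (median 1125) in live cells. PABPC1, the cytoplasmic poly(A)-binding protein, had medians of 1173 CPM in set 2 and 1541 CPM in set 1 in fixed cells and of 1240 and 1658 CPM in live cells, and fixed cells of the sets did not overlap. SF3B1 had medians of 251 and 555 CPM in fixed and 422 and 612 CPM in live cells. ACTR2, of the Arp2/3 complex, had 91.8 and 257 CPM in fixed and 86.9 and 333 CPM in live cells. SET, SENP1, SRSF6 and AP1G1 complete the 8 most regularly lower genes.

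Composition parted the sets as well as length. The 230 genes higher in set 2 by pairs had a median GC content of 55.4% and a median length of 1232 bases, and the 98 lower ones 41.7% and 4509 bases, against 47.1% and 2996 bases for all genes. Over 5 bins from the lowest to the highest GC content the median log2 ratio of set 2 over set 1 was -0.17, -0.15, -0.04, 0.05 and 0.18 in fixed cells and -0.28, -0.17, -0.04, 0.13 and 0.26 in live cells. From the shortest to the longest bin it was 0.11, -0.01, -0.05, -0.09 and -0.18 in fixed cells and 0.22, 0.01, -0.02, -0.17 and -0.28 in live cells. Short genes were thus higher both in set 2 and in fixed cells, while the median ratio of fixed over live went with GC content in no shared direction, at -0.07 in the lowest and 0.00 in the highest bin in set 1 and 0.07 and -0.12 in set 2.

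**Figure D5:**
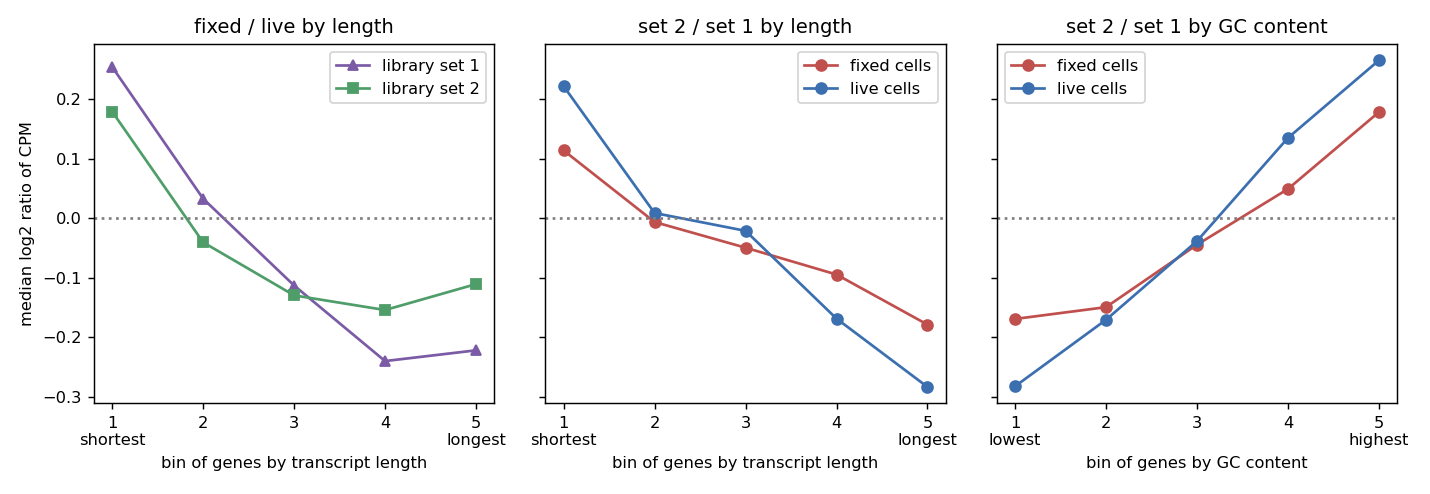
Median log2 ratio of CPM (y axis) in 5 bins of genes (x axis): fixed over live by transcript length in each library set, and library set 2 over set 1 by length and by GC content in fixed cells (red) and live cells (blue). Short genes lie at 0.25 and 0.18 for fixed over live, and genes of the highest GC content at 0.18 and 0.26 for set 2 over set 1.

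In the cells lysed with Triton X-100, which share no cell with those above, the median log2 ratio of fixed over live was -1.73 over the same 7518 genes, against -0.02 for FRISCR. The medians of single lists were 1.31 for the large and 1.23 for the small ribosomal subunit, 0.67 for complex I, 0.79 for ATP synthase and -2.53 for aminoacyl-tRNA synthetases. Other lists with medians above 0 in FRISCR cells lay below 0 in Triton cells, where the median of all genes was itself -1.73. Against that median the mitochondrial ribosome (-0.13) lay above, the proteasome (-1.65) close to it and nucleolar and ribosome assembly (-1.98) below. The difference between the 2 procedures was not tested.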

How the data were processed

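Single H1 cells were profiled by poly(A)-primed cDNA synthesis and short-read sequencing, 1 sample per cell. The authors deposited a table of estimated counts (expected counts) per gene and cell, of whose nonzero values 40.3% have a fractional part, and a table of TPM values, each with 23045 rows. Per the submitters' processing notes the build was hg19 (GRCh37). Which programs aligned and quantified the reads is not given in the sources used here. Of the rows, 19310 matched a symbol in current gene lists that include GENCODE release 29. A further 2051 matched an older symbol, including any that more than 1 gene has carried. A gene is printed under the name in the tables.

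Counts were rounded and summed over cells by group and library set, with 0 cells left out. A floor of 3 counts over the group stood in for any smaller sum. Genes that reached 20 CPM in fixed or in live cells were compared. A gene was called by fold (1.5-fold in both sets) or by pairs (at least 75% of cell pairs in both sets). Transcript length came from the ratio of counts to TPM, and GC content from GENCODE, for 98.2% of genes. Each list was set beside the other genes within the central range of its own lengths, not matched to it within that range. For short lists that range reaches well past the list's median length. No test was run, since no group has more than 1 sample that the labels separate.

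Genes were named by rule: the 12 highest and 12 lowest by pair share for fixed over live and 8 each way for the sets, ranked by the less extreme set, and from each of 40 lists the called members, the most abundant ones and the extremes. A few genes that the rule names are not reported here. Outside the rule, SF3b, TERF1 and POU5F1 between the sets were chosen for their values, and the core pluripotency genes as a check of the label. The members and lists were chosen with earlier results of these data known. Alternatives used factors by TMM from edgeR 4.0.16 and by median of ratios from DESeq2 1.42.0 (R 4.3.3), means of CPM or of the deposited TPM over cells, filters of 5 and 50 CPM and leaving out each cell. The pair call, the GENCODE length, the split by length or expression, the like-length background and the spread over 6 cells were added after seeing the data. Calculations used Python 3.11.15, and were tested on simulated data.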

Additional observations from a re-analysis of the deposited data

How the results depend on the processing

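Leaving out each cell in turn gave 299 to 340 genes higher and 589 to 672 lower in fixed cells, and 393 to 444 higher and 509 to 598 lower in library set 2. The counts depended on the filter: with 50 CPM they were 107 higher and 263 lower in fixed cells and 144 higher and 218 lower in set 2, and with 5 CPM 719, 1161, 904 and 1012 in that order, as more or fewer genes were compared. The call by cell pairs gave 157 and 137 in fixed cells. By mean TPM the calls were 215 and 789 for fixed over live and 325 and 658 for set 2 over set 1, and the median of all genes was -0.14. Under TMM, median-of-ratios factors and mean CPM the 4 counts stayed within 1.5 times of those reported. The difference in genes detected was -125.5 at 500000 counts and -204.5 with at least 5 counts, and -187 to -8 when each cell was left out.

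Of 1216 list medians under the alternatives, 1050 moved by less than the spread between the sets, 161 moved by more, and 5 changed sign with both values beyond that spread: actin and tubulin cytoskeleton by mean TPM (-0.062), and aldehyde and crosslink repair when any of 4 cells was left out (range -0.11 to 0.082 over all cells left out, against -0.04 as reported). In all, 36 medians in 13 lists lay on the other side of 0 from the value reported, 29 of them with a cell left out. With the 5 CPM filter these were immediate early genes (0.13 against -0.46), the NODAL pathway (0.16) and double-stranded RNA sensing (0.15), and by mean TPM also splicing factors (-0.01), nuclear noncoding RNA (-0.04) and G2/M and mitosis (-0.09 against 0.00277). By mean TPM the median of all genes was itself -0.14. The list medians given for that setting, with actin and tubulin, lay above it. The causes were not tested. None of the 744 values of the 24 named genes changed sign, which their choice by extreme pair shares in the same cells made likely. Leaving out a cell moved a ratio by at most 1.21 times (HIP1). No label pairs a fixed with a live cell, and no test was run. Each group is 1 sample, so none of these values shows how far other cultures would differ, and genes near 20 CPM lack counts in many cells.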
